A study of Mus musculus with 6 samples.

Results

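Etv1 (also called Er81), Etv4 (Pea3) and Etv5 (Erm) are the PEA3 group of the ETS transcription factors. They were taken by name as 3 rows of a deposited table of 24264 genes from lumbar dorsal root ganglia of mouse embryos at E12.5, measured in 6 RNA sequencing libraries. The ganglia hold the cell bodies of sensory neurons, their glia and their precursors. The members were chosen by their lower RPKM in the mutant libraries than in the controls of this same table, so their fitted changes are descriptions without a test. The 3 control libraries are titled Wnt-Cre (controls 1 and 3) and WT (control 2). The 3 miR_cKO libraries come from embryos that carry Wnt1-Cre and have both copies of the microRNA cluster miR-183-96-182 floxed (flox/flox). Wnt1-Cre is active in neural crest, the source of the neurons and glia of the ganglia, and not in muscle. All 6 libraries share a mixed C57/Bl6 x 129/SvEv background. The labels do not say whether a library holds 1 embryo or several, and p-values measure the spread between these libraries only.

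PEA3 factors bind DNA through an ETS domain and mostly activate transcription. Their genes are switched on by receptor tyrosine kinase signals through the kinase ERK, and fibroblast growth factors (FGFs) are the best known inducers. In the sensory and motor system, neurotrophin 3 from muscle induces Etv1 in the proprioceptive neurons that innervate muscle spindles, and GDNF induces Etv4 in certain motor neuron pools. Without such signals the repressor capicua and the ubiquitin ligase COP1 keep the group low.

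The deleted microRNAs are shown because microRNAs usually act through a match of the seed to the 3′ untranslated region of a message. The mature sequences from RefSeq (GRCm38.p6, chromosome 6, minus strand) run 5′ to 3′, with the seed, bases 2 to 8, in capitals. MiR-96 and miR-182 share all but the last base of the seed.
miR-183: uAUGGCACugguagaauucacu
miR-96: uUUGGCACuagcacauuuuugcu
miR-182: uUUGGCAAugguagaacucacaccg

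Only Etv1 held matches in its longest annotated 3′ untranslated region (GENCODE M21, mm10), and both were 7-base matches to miR-183. They are printed as message sequence with the match in capitals. The first lies at 38866496 to 38866502 and the second at 38869478 to 38869484 on chromosome 12, plus strand, 727 and 3709 bases into a region of 4715 bases.
Etv1 site 1: atgtatctgGTGCCATcctgctgtt
Etv1 site 2: tgatgctccTGCCATAgtatgtttt

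Etv4 (chromosome 11, minus strand, region of 624 bases) and Etv5 (chromosome 16, minus strand, 2161 bases) held no 7-base or 8-base match to any of the 3 seeds. Among all 12139 tested genes with a 3′ untranslated region, 35.7% held at least 1 match. Among the 1000 tested genes nearest in length, the share was 74.8% for Etv1, 18.0% for Etv4 and 48.2% for Etv5. The Etv1 sites depend on the transcript: a transcript with a region of 2434 bases held 1, and the annotated transcripts with a region of 480 bases or less held 0. The files do not say which Etv1 transcript was made. In the RefSeq promoter windows of Etv1 and Etv5, 2 each, from 250 bases before to 50 after a start, there was no TGAATGAA, TCAATGAA, TGAATGGA or TCAATGGA on either strand. These octamers are bound by capicua, and 3.83% of all 32841 windows hold one. Only these 4 octamers were searched, so the search does not show that other capicua sites are absent. An Etv5 window holds TGAATGGG more than once, on both strands. This octamer differs from TGAATGGA in its last base and was not searched for. No window was available for Etv4.

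Levels are given in RPKM, reads per kilobase of transcript and per M mapped reads (M, mega). The unit was inferred from the values, and comparisons of level between genes rest on it. Etv1 measured 10.4, 7.05 and 9.01 RPKM across controls 1 to 3, against 6.25, 4.58 and 4.95 RPKM across miR_cKO 1 to 3. Every miR_cKO library was below every control, by 0.807 RPKM between the lowest control and the highest miR_cKO library. The mean went from 8.83 ± 1.69 to 5.26 ± 0.876 RPKM (SD, n = 3 each), 40.4% lower, a fitted log2 change of -0.65 (SE 0.16) on the log2(RPKM + 1) scale. Of 13118 genes tested, 0.496% had a lower log2 change. Etv1 had the largest change of the 3 members and, in controls, the widest spread, with control 1 at 1.48 times control 2.

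Etv4 measured 9.33, 8.62 and 10 RPKM across controls 1 to 3, against 9.03, 7.41 and 4.75 RPKM across miR_cKO 1 to 3. The groups overlapped, since miR_cKO 1 lay above control 2, and miR_cKO 3 stood lowest at 51.0% of the control mean. The means were 9.31 ± 0.692 and 7.06 ± 2.16 RPKM (SD, n = 3 each), 24.2% lower, with a fitted log2 change of -0.39 (SE 0.20). Without miR_cKO 3 the change was -0.17, the largest shift that any left-out library gave.

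Etv5, the most abundant of the 3, measured 24.7, 21.3 and 23.1 RPKM across controls 1 to 3, against 16.9, 17.1 and 14.7 RPKM across miR_cKO 1 to 3. The groups were apart by 4.23 RPKM, and neither spread over more than 1.16 times from its lowest to its highest library. The mean went from 23.1 ± 1.71 to 16.2 ± 1.30 RPKM (SD, n = 3 each), 29.6% lower, a fitted log2 change of -0.48 (SE 0.09). Of the genes tested, 1.03% had a lower change than Etv5 and 1.87% a lower one than Etv4. In the comparison of all genes, the groups did not overlap, with miR_cKO lower, for 6.24% of genes, and limma called 0.061% at an adjusted p under 0.05, 0.0534% higher and 0.00762% lower. At an unadjusted p under 0.05, 2.31% of all genes were lower and 2.85% higher. Because the members were chosen with this contrast in view, nothing is read from 2 of 3 members having separate groups.

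**Figure D1:**
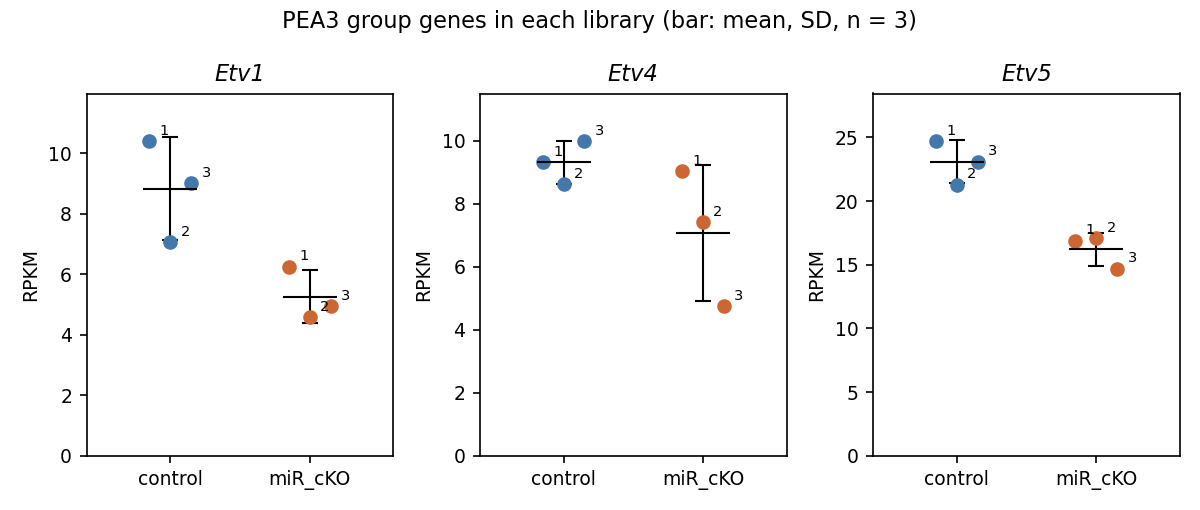
RPKM (y axis) of Etv1, Etv4 and Etv5 in each library, numbered by replicate, with the mean and SD (n = 3) of control and miR_cKO in black. Etv1 and Etv5 are lower in all 3 miR_cKO libraries than in any control, while Etv4 overlaps because miR_cKO 1, at 9.03 RPKM, lies above control 2.

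Counting error was small beside the differences between group means, but not beside every difference between single libraries. The deposited values could be turned back into whole reads: 709 to 935 reads in controls and 421 to 582 in miR_cKO for Etv1, 471 to 488 and 231 to 474 for Etv4, and 1754 to 2016 and 1154 to 1428 for Etv5. The counting error of 1 library was thus 3.27% to 4.87% for Etv1, 4.53% to 6.58% for Etv4 and 2.23% to 2.94% for Etv5. The Etv4 groups overlapped through miR_cKO 1 at 9.03 RPKM and control 2 at 8.62 RPKM. That gap was about as large as the counting errors of these libraries, 4.59% and 4.53%. The spread between libraries, as SD over mean, was larger throughout: 19.1% in controls and 16.7% in miR_cKO for Etv1, 7.43% and 30.6% for Etv4, and 7.43% and 8.02% for Etv5. The read-based errors cover counting only, since reads from PCR are not all independent molecules.

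The order of the members by level was the same at the top in every library. Etv5 was highest in 6 of 6, making up 56.1% ± 1.42 of the summed level of the 3 in controls and 57.2% ± 4.13 in mutants (n = 3 each, SD). Etv4 and Etv1 were neighbours whose control means, 9.31 and 8.83 RPKM, differed by less than their SD. Etv4 over Etv1 was 0.896, 1.22 and 1.11 in controls 1 to 3 and 1.45, 1.62 and 0.960 in miR_cKO 1 to 3, so the groups overlapped in this ratio. The summed level of the 3 factors was 44.5, 37.0 and 42.1 RPKM in controls 1 to 3 and 32.2, 29.1 and 24.4 RPKM in miR_cKO 1 to 3. Each miR_cKO library thus held less PEA3 message in all than the lowest control, a description only, since the members were chosen as lower. In these bulk libraries, fewer cells that express a gene and less RNA per cell cannot be told apart.

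The rest of the ETS family gives the setting. Of 25 family members in the table, 17 passed the filter of 1 RPKM in at least 3 libraries, the 3 PEA3 genes among them. By mean level in controls, Etv5 ranked 2 in the family, below Elf2 at 30.4 RPKM, and Etv4 and Etv1 ranked 8 and 9. In miR_cKO, Etv5 ranked 3, behind Elf2 at 29.6 and Gabpa at 17.2 RPKM, and Etv4 and Etv1 ranked 11 and 12. Gabpa, an ETS factor of mitochondrial and housekeeping genes, was at 16.8 ± 0.634 and 17.2 ± 1.75 RPKM. The means of Ets2 were 12.6 and 12.2 RPKM, those of Ets1 12.2 and 11.2 RPKM and those of Elk3 9.87 and 8.90 RPKM.

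None of the 14 other ETS genes tested passed (limma, adjusted p 0.746 or more). At an unadjusted p under 0.05, 1 of them was lower and 0 were higher. Their median log2 change was -0.048, against -0.024 over all genes tested, and it turned positive without control 2 (0.032), without miR_cKO 1 (0.029) and without controls 2 and 3 (0.088). Groups did not overlap, with miR_cKO lower, for 2 of the 14 (14.3%, beside 6.24% of all genes). These were Erf and Etv6, both repressors. Erf, an ETS repressor that ERK drives out of the nucleus, measured 12.2, 15.5 and 16.1 RPKM across controls 1 to 3, against 11.3, 11.7 and 9.69 RPKM across miR_cKO 1 to 3. Control 1 lay close to the miR_cKO libraries, and the log2 change of -0.39 (SE 0.12, adjusted p = 0.746 by limma) was -0.15 without controls 2 and 3. Etv6 was at 8.31 ± 0.501 and 7.12 ± 0.608 RPKM.

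**Figure D2:**
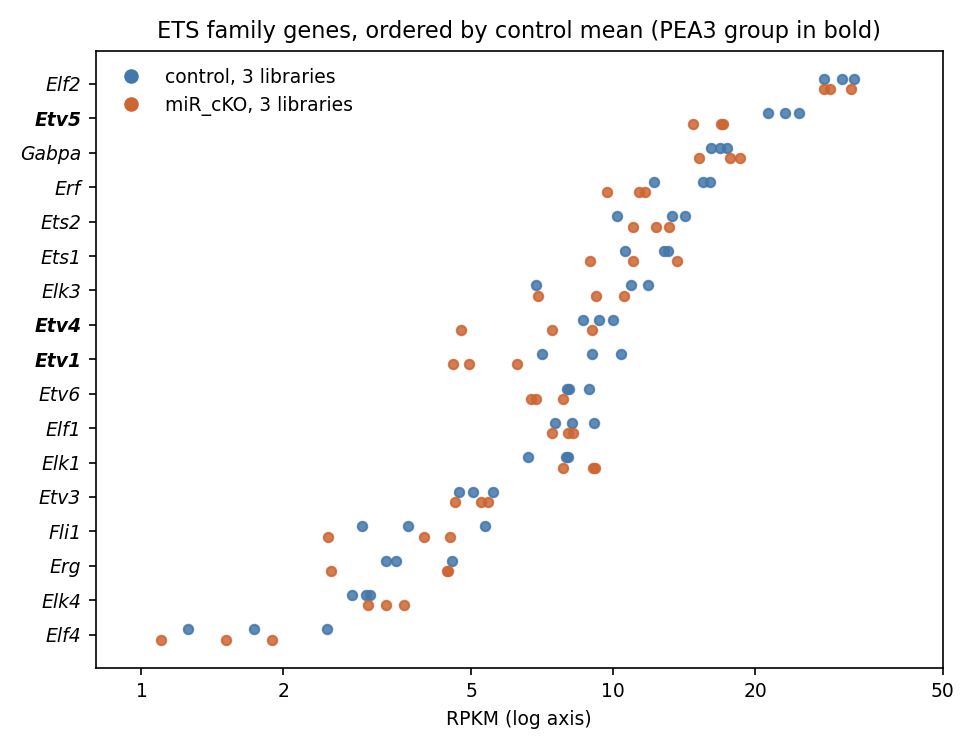
RPKM on a log axis of the 17 tested ETS family genes in each library, ordered by control mean, with the PEA3 group in bold, controls in blue and miR_cKO in orange. Etv5 ranks 2 by control mean, and the 3 miR_cKO points of Etv1 and Etv5 lie to the left of all their control points.

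Genes of FGF and ERK feedback are usually transcribed together with the PEA3 group, since the same signal induces them. Of 24 such genes listed, 21 were tested, and none passed (limma, adjusted p 0.143 or more). At an unadjusted p under 0.05, 2 were lower and 1 was higher. Of the 21, 16 had a change below 0, where 59.6% of all genes tested did. The median log2 change was -0.13, against -0.024 over all genes. It was -0.060 without control 2, -0.061 without miR_cKO 1 and 0.057 without controls 2 and 3.

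Spry2 and Dusp6 were the 2 feedback genes whose groups did not overlap with miR_cKO lower, 9.52% of those tested beside 6.24% of all genes. Spry2, a Sprouty protein that dampens receptor tyrosine kinase signalling, measured 9.55, 9.64 and 10.1 RPKM across controls 1 to 3, against 8.23, 7.03 and 7.31 RPKM across miR_cKO 1 to 3. Its log2 change was -0.34 (SE 0.08), with an adjusted p of 0.445 by limma. Dusp6, the phosphatase that switches off ERK, measured 12.1, 14.3 and 13.3 RPKM across controls 1 to 3, against 10.4, 11.3 and 10.2 RPKM across miR_cKO 1 to 3. Its log2 change was -0.29 (SE 0.09), with an adjusted p of 0.679 by limma, and -0.17 without controls 2 and 3.

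Spry3, another Sprouty gene, had its higher values in the mutants. It measured 2.66, 2.93 and 2.57 RPKM across controls 1 to 3, against 5.83, 4.97 and 4.43 RPKM across miR_cKO 1 to 3. All miR_cKO libraries were above all controls, as for 4.63% of genes tested, with a log2 change of 0.70 (SE 0.11, adjusted p = 0.143 by limma). Other abundant genes of the list had overlapping groups. Phlda1, an ERK-induced gene, was at 17.1 ± 4.09 and 12.6 ± 2.80 RPKM, the cell cycle gene Ccnd1 at 23.3 ± 7.14 and 30.2 ± 12.7 RPKM, and Myc at 13.8 ± 1.44 and 11.8 ± 2.84 RPKM. The adaptor Spred1, an inhibitor of the Ras pathway, was at 22.1 ± 1.32 and 20.8 ± 2.34 RPKM, and Spred3 at 12.3 ± 0.303 and 12.4 ± 1.31 RPKM (SD, n = 3 each). The phosphatase Dusp4 ranged from 9.18 to 16.2 RPKM in controls and from 11.8 to 19.4 RPKM in mutants.

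**Figure D3:**
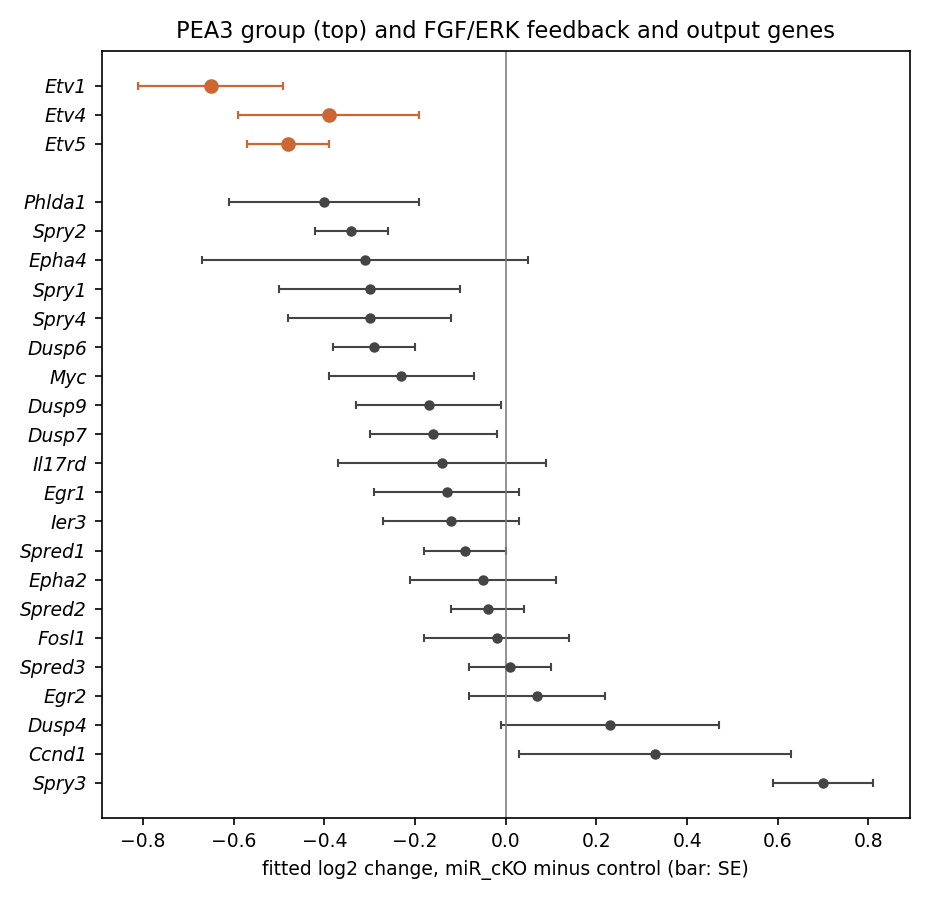
Fitted log2 change, miR_cKO minus control (x axis, bars are SE), of the 3 PEA3 genes (orange, top) and the 21 tested FGF and ERK feedback and output genes in order of change. Spry2 at -0.34 and Dusp6 at -0.29 are on the side of the PEA3 genes and Spry3 at 0.70 is farthest on the other side; none passed the threshold.

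Few FGF pathway genes were present. Of 25 ligands and receptors in the table, 5 were tested, and none passed (limma, adjusted p 1 throughout; 0 at an unadjusted p under 0.05). All 5 had a change below 0, where 59.6% of all genes tested did, with a median log2 change of -0.12, against -0.024 over all genes. Fgf18, the one ligand tested, measured 9.87, 9.91 and 9.12 RPKM across controls 1 to 3, against 8.18, 9.01 and 8.20 RPKM across miR_cKO 1 to 3. It was 1 of 5 tested genes whose groups did not overlap with miR_cKO lower, beside 6.24% of all genes, with a log2 change of -0.17 (SE 0.08, adjusted p = 1 by limma). Fgfr1 was the most abundant receptor, at 21.3 ± 3.12 and 19.5 ± 1.69 RPKM. Fgfr2 and Fgfr3 spread widely between libraries, with Fgfr2 at 9.38 RPKM and Fgfr3 at 4.58 RPKM in miR_cKO 3, the highest values of each.

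Of the neurotrophins, GDNF ligands and their receptors, 9 of 19 were tested and none passed (limma, adjusted p 1 throughout; 0 at an unadjusted p under 0.05), with a median log2 change of -0.00027. Ntrk3, the receptor of neurotrophin 3 and so of the signal that induces Etv1, measured 8.81, 9.53 and 7.99 RPKM across controls 1 to 3, against 9.92, 11.3 and 9.63 RPKM across miR_cKO 1 to 3. It was 1 of 9 tested genes whose groups were apart with miR_cKO higher, beside 4.63% of all genes, with a log2 change of 0.21 (SE 0.10, adjusted p = 1 by limma). The ligand itself, Ntf3, was at no more than 1.41 RPKM. Among the receptors of the GDNF family, Gfra1 was at 39.4 ± 1.08 and 34.5 ± 6.16 RPKM and Gfra3 at 35.7 ± 2.87 and 36.0 ± 6.53 RPKM (SD, n = 3 each). The GDNF receptor Ret, named after its values were seen, had 10.4 ± 1.73 and 8.54 ± 1.75 RPKM. Ngfr, the low affinity neurotrophin receptor, had 98.1 ± 5.36 and 99.3 ± 18.8 RPKM. Ntrk2 had 9.33 ± 1.19 and 11 ± 1.54 RPKM and Gfra2 12 ± 0.608 and 14.1 ± 2.92 RPKM.

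Regulators of the group itself gave no call. Of 19 tested, none passed (limma, adjusted p 0.996 or more; 0 at an unadjusted p under 0.05), and the median log2 change was -0.049. Cic, which encodes capicua, was not among the 6 most abundant and is named after its values were seen: it was at 27.4, 24.7 and 24.3 RPKM in miR_cKO 1 to 3, within or just below the control range of 24.8 to 32.9 RPKM. Ddb1, a subunit of COP1 ligase complexes, was at 217 ± 10.2 and 205 ± 2.71 RPKM. Dda1, a partner of Ddb1, had 33.6 and 32.4 RPKM, the kinase Rps6ka3 33.6 and 32.6 RPKM and the deubiquitinase Usp9x 31.7 and 33.9 RPKM. The ERK kinase Mapk3 had a mean of 53.3 RPKM in controls, against 51.0 RPKM in mutants. Rps6ka2, an ERK-activated kinase, was the 1 regulator whose groups did not overlap (5.26% of those tested, beside 6.24% of all genes), at 30.1 ± 2.02 and 24.8 ± 4.10 RPKM, with a log2 change of -0.28 (SE 0.12, adjusted p = 0.996 by limma) that was -0.15 without miR_cKO 3.

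Genes reported downstream of PEA3 factors in kidney or neurons gave no call either. Of 14 listed, 8 were tested, and none passed (limma, adjusted p 0.679 or more). Of the 8, 7 had a change below 0, where 59.6% of all genes tested did. The median log2 change was -0.12, against -0.024 over all genes. At an unadjusted p under 0.05, 1 was lower, which was Dusp6, a member of both lists. The chemokine receptor Cxcr4 was at 16.2 ± 1.41 and 15.9 ± 3.26 RPKM, the Ras pathway inhibitor Spred2 at 10.9 ± 0.761 and 10.6 ± 0.342 RPKM, the membrane protease Mmp14 at 57.9 ± 4.92 and 52.3 ± 2.90 RPKM, and the proprioceptor factor Runx3 at 17.2 ± 3.07 and 16.0 ± 3.03 RPKM (SD, n = 3 each). Th, which is made in a class of touch neurons as well as in sympathetic neurons, ranged from 8.57 to 36.9 RPKM with no separation of the groups. Pvalb, the calcium-binding protein of mature proprioceptors, was at 0.413 RPKM or less.

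Cell type markers bear on which cells the members could come from. Sensory neuron markers were abundant, with a summed level of 3169 to 4763 RPKM over 12 genes, among which Nefm, Tubb3 and Stmn2 were highest. Markers of glia and Schwann cell precursors summed to 1119, 848 and 1022 RPKM in controls 1 to 3. In miR_cKO 1 to 3 they summed to 1005, 968 and 893 RPKM. Most of this sum was 1 gene, Fabp7, at 923, 666 and 836 RPKM in controls and 814, 762 and 734 RPKM in miR_cKO. Whether neurons, glia or their precursors expressed the members was not tested. The list for spinal cord and motor neurons, which also express Etv1 and Etv4, had 2 of 11 genes tested, and none passed (limma, adjusted p 1 for both; 0 at an unadjusted p under 0.05). It summed to 20.6, 21.0 and 15.6 RPKM in controls 1 to 3 and to 19.5, 18.9 and 38.5 RPKM in miR_cKO 1 to 3. Its highest sum was thus in miR_cKO 3, the library with the lowest Etv4. The sensory neuron sum was lowest in that same library, at 3169 RPKM. The part of either list in the Etv4 values was not tested. Sox2, a factor of neural precursors and glia, made up most of the spinal cord and motor neuron sum. It was at 12.2 to 18.6 RPKM in controls and 16.4 to 29.1 RPKM in mutants. Pax6, of dorsal and ventral spinal precursors, reached 3.59 RPKM and Pax2, of spinal interneurons, 4.66 RPKM, both in miR_cKO 3. Of the genes that define motor neurons, Mnx1 was at 0 in all 6 libraries, Chat at 0.0533 RPKM or less, Slc18a3 at 0.185 RPKM or less and Lhx3 at 0.179 RPKM or less, while Olig2 of their precursors reached 0.896 RPKM in miR_cKO 1. Within the proprioceptor list, 7 of 10 genes were tested and none passed (limma, adjusted p 0.107 or more). The groups were apart with miR_cKO lower for 1 of the 7, Spp1 at 1.63 and 0.438 RPKM, beside 6.24% of all genes. They were apart with miR_cKO higher for 2 of the 7, Cdh13 at 3.21 and 5.08 RPKM and Ntrk3, beside 4.63% of all genes. The most abundant of the list, Fxyd7, had 38.2 ± 6.61 and 37.6 ± 8.25 RPKM.

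Libraries also differed in other cells, and this ran partly across the genotypes. The nociceptor list summed to 329, 206 and 358 RPKM in controls 1 to 3 and to 361, 207 and 163 RPKM in miR_cKO 1 to 3. Of its genes, 8 of 8 tested had a change below 0, where 59.6% of all genes tested did. Their median log2 change was -0.36, and none passed. Etv1, like the nociceptor sum, was lowest in control 2 among controls and highest in miR_cKO 1 among mutants. The other ranks differed: Etv1 was highest in control 1 and lowest in miR_cKO 2, and the sum was highest in control 3 among controls and lowest in miR_cKO 3. Etv4 had the order of the nociceptor sum within both groups. From highest to lowest this was controls 3, 1 and 2, and miR_cKO 1, 2 and 3. The part of these cells in the Etv1 and Etv4 values was not tested. Mesenchyme markers, of which 13 of 13 tested had a change below 0, summed to 242, 411 and 445 RPKM in controls and to 212, 284 and 316 RPKM in miR_cKO. Muscle markers, of which 6 of 6 tested had a change below 0, summed to 30.5, 166 and 132 RPKM in controls. In miR_cKO they summed to 29.4, 31.7 and 40.3 RPKM, and their part in the changes of the lists above was not tested. Red cell markers summed to 11785, 6272 and 2549 RPKM in controls 1 to 3 and to 4239, 7810 and 8064 RPKM in miR_cKO 1 to 3, so their ranges overlapped.

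Without controls 2 and 3, which carried the most muscle message, the log2 changes were -0.88 for Etv1, -0.39 for Etv4 and -0.58 for Etv5. With the nociceptor list mean as a covariate they were -0.50, -0.23 and -0.43, and with the mesenchyme list mean -0.84, -0.55 and -0.57. These covariates were chosen after the data were seen, and the values are descriptions.

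**Figure D4:**
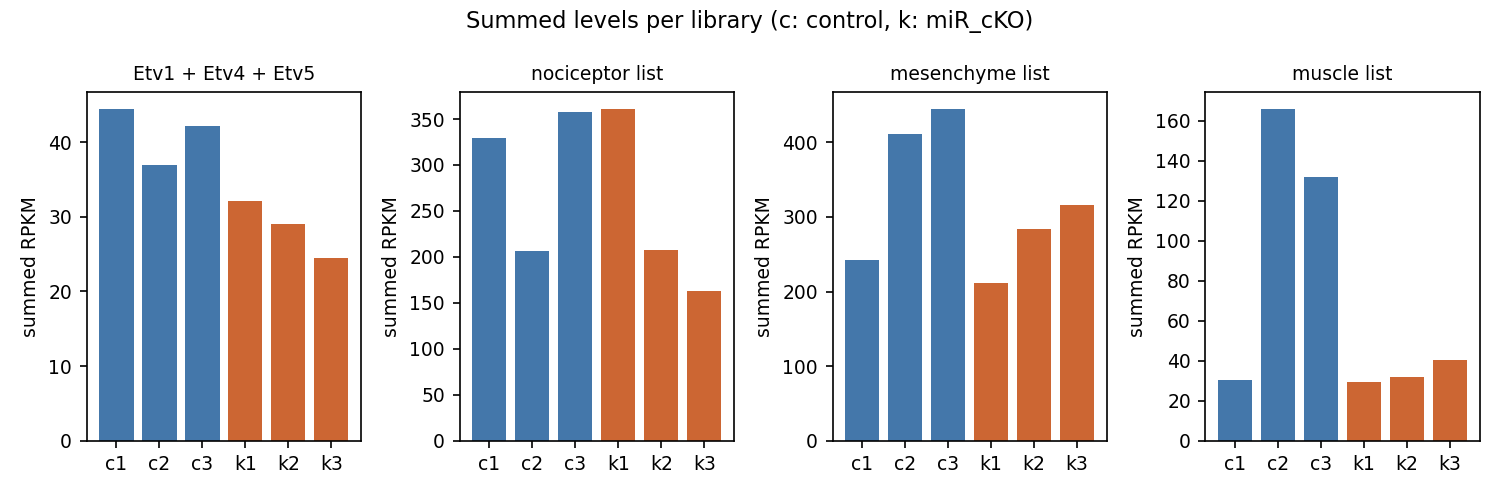
Summed RPKM (y axis, from 0) in each library of the 3 PEA3 genes and of the nociceptor, mesenchyme and muscle marker lists, with controls (c1 to c3) in blue and miR_cKO (k1 to k3) in orange. The PEA3 sum is below 37.0 RPKM in every miR_cKO library, a description only, since the members were chosen as lower in these libraries. The nociceptor sum is high in c1, c3 and k1, and the muscle sum is high in c2 and c3 alone. The marker lists were not chosen in that way, so the panels do not compare like with like.

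The genes whose pattern over the 6 libraries was most like each member were found by Pearson r of log2(RPKM + 1) among 9014 named genes with a mean of 5 RPKM or more. The r includes the difference between genotypes and is a description. For Etv1 they were Siah2 (r 0.996), a ubiquitin ligase, Ap1s2 (0.993), Rbfox2 (0.978), a splicing factor, Osbp (0.975) and the semaphorin Sema3c (0.973). For Etv4 they were Ubxn2a, Rhbdf2 (0.994 each), the metalloprotease Adam19 (0.991), Itpk1 (0.987) and the phosphatase Dusp3 (0.984), and all 5 were lowest in miR_cKO 3. For Etv5 they were Myo6 and Atg4a (0.990 each), an unconventional myosin and an autophagy protease, Specc1l and Cox5a (0.989 each) and the kinase Map2k6 (0.986). Myo6 measured 12.7, 10.4 and 10.8 RPKM across controls 1 to 3, against 7.77, 7.39 and 6.58 RPKM across miR_cKO 1 to 3. Among the members themselves, r was 0.922 between Etv1 and Etv5, 0.789 between Etv4 and Etv5 and 0.719 between Etv1 and Etv4.

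**Figure D5:**
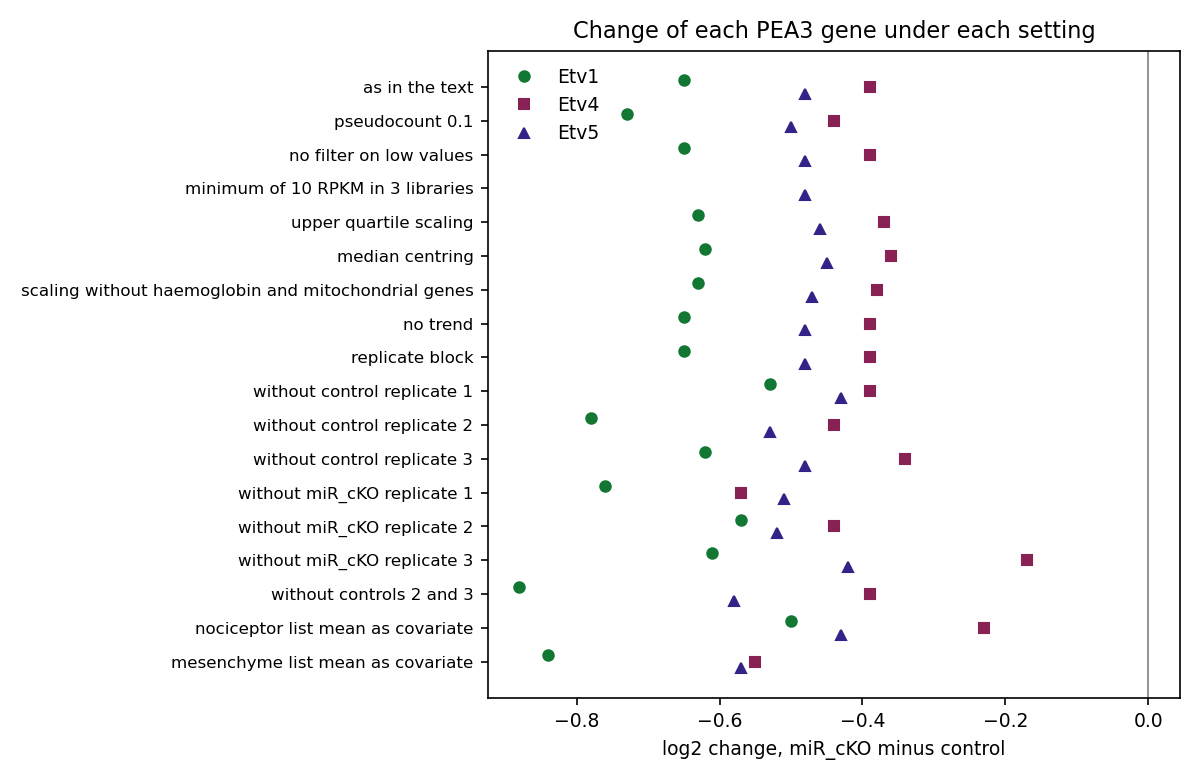
Log2 change, miR_cKO minus control (x axis), of Etv1, Etv4 and Etv5 under each processing setting or set of libraries (y axis). Every point is below 0, which is a description only, since the members were chosen as lower in these libraries. Etv5 stays between -0.58 and -0.42, and Etv4 reaches -0.17 without miR_cKO 3.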

How the data were processed

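RNA from lumbar dorsal root ganglia was made into stranded libraries of polyadenylated RNA, per the labels' protocols, and Bowtie and mm10 are named, without a Bowtie version, per the submitters' processing notes. No source used here gives the counting tool or the annotation. What the authors deposited is 1 table with a decimal comma and no named unit. Its values were read as RPKM, which is an inference. Each gene's low values moved in equal steps whose size differed between libraries by 1 shared factor. The steps also differed between genes: in control 1, 935 reads of Etv1 gave a value of 10.4 and 472 reads of Etv4 gave 9.33. From these steps the depth was 20.2 to 24.3 M reads per library (M, mega), and whole reads were recovered for the members within 0.02 read.

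Values were transformed to log2(RPKM + 1), which understates the change of low genes. Genes with 1 RPKM in at least 3 libraries, 13118 in all, were fitted with limma 3.58.1 (R 4.3.3, empirical Bayes with trend and robust settings, Benjamini-Hochberg over all genes, threshold 0.05), without a replicate block. The script was tested on simulated data with 100 planted changes of each size. It called 43% of those with a log2 change of 0.5 and 85% of those with a log2 change of 1. These shares may be too high for the real data. Changes were planted only in the more abundant genes, with noise independent between genes. More genes also passed than the 8 called in the real data, which makes the adjusted threshold easier to pass. A gene that did not pass is therefore not shown to be unchanged. The members and lists were chosen with earlier results of these data known. Named genes are the 6 most abundant tested genes of each of the 6 pathway lists, those past the threshold and those whose groups do not overlap, the 3 most abundant genes of each marker list and those at 0, and the 5 genes most like each member. Some genes that this rule takes are not reported here. Cic, Ret, Ntf3, Pvalb, Chat, Slc18a3, Lhx3, Olig2 and Pax2 fall outside the rule and were named after their values were seen. Seed matches were searched in the longest 3′ untranslated region of each gene. Alternatives changed the pseudocount, filter, scaling, trend, block, libraries and covariates, and the covariates were added after the data were seen. No column of values was left unused.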

Additional observations from a re-analysis of the deposited data

How the results depend on the processing

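All 3 PEA3 genes kept a change below 0 in each of the alternatives run, 16 for Etv1 and Etv4 and 17 for Etv5. With a minimum of 10 RPKM, Etv1 and Etv4 were not tested. The members were chosen as lower in these same libraries, so the sign is a description and gives no support. For Etv1 and Etv5, whose groups do not overlap, leaving libraries out cannot turn it. The filter, the trend setting and the replicate block leave a gene's fitted change as it is. With 1 library left out, Etv1 ranged from -0.78 to -0.53, Etv4 from -0.57 to -0.17 and Etv5 from -0.53 to -0.42. None of the 6 pathway lists had a member past the threshold under any alternative run (marker lists were not counted), and the lowest adjusted p of Spry3 was 0.0713, with the nociceptor covariate. The count of genes called over all genes was 8. It was 0 with upper quartile scaling, with scaling without haemoglobin and mitochondrial genes, without the trend, with the replicate block, without controls 2 and 3 and with the mesenchyme covariate, beside 395 to 933 genes at an unadjusted p under 0.05. It was 2 with median centring and 64 with the nociceptor covariate, and 0 to 2 with 1 library left out. The median of the feedback genes turned to 0.057 without controls 2 and 3 and to 0.021 with the mesenchyme covariate. That of the other ETS genes, -0.13 without control 1, turned to 0.032 without control 2, 0.029 without miR_cKO 1, 0.088 without controls 2 and 3 and 0.10 with the mesenchyme covariate. The cause of these shifts was not tested. With the replicate block the members' changes were -0.65, -0.39 and -0.48, as without it. In this balanced layout the block cannot move a fitted change, only its SE, so the equality tells nothing. Deviations of same-numbered libraries correlated at 0.359, 0.330 and -0.221 for numbers 1, 2 and 3. Those of differently numbered libraries ranged from -0.700 (control 2 with miR_cKO 1) to 0.524 (control 2 with miR_cKO 3). These values do not decide whether the numbers pair the libraries. Without controls 2 and 3 the lone control is assumed to vary like the other group. Depth limits the least for Etv5 and the most for Etv4 in miR_cKO 3, with 231 reads.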
